A study of Mus musculus with 2 samples.

Results

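Mast cell proteases and markers were followed in RNA of newborn mouse skeletal muscle through 9 genes, chosen by symbol, of the 43346 genes in the deposited tables. The 5 protease genes were the tryptases Tpsb2 and Tpsab1, the chymases Cma1 and Mcpt4 and the carboxypeptidase gene Cpa3. The 4 marker genes were Kit, Ms4a2, Fcer1a and Hdc, which encode surface receptors or their subunits and an enzyme. They were chosen for their known roles in mast cells, with earlier results of these libraries known. The study holds 1 group of 2 libraries, the biological replicates 1 and 2 of its labels, each made by a SmartSeq protocol (full-length cDNA amplification) from 13 pg of total RNA. The source was skeletal muscle of B6NCrl pups, which belong to a C57BL/6N line, at an age of 0 days with no treatment named in the labels, and each library came from a portion of the muscle of 1 pup. The labels equate the input with 1 cell, but it was RNA of whole tissue, in which a mast cell is a minor resident, and sex was not collected. The tissue records differ between the libraries and the donor entry is the same, so differences between animals, tissue portions and library preparations cannot be told apart.

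Mast cells arise from blood-forming precursors and settle in connective tissue, including that between muscle fibres, where stem cell factor acting on the receptor Kit sustains them. Their granules store serine proteases with trypsin-like (tryptase) or chymotrypsin-like (chymase) cleavage, carboxypeptidase A3 and histamine on a matrix of heparin and serglycin. Crosslinking of IgE on its high-affinity receptor, made of the alpha chain Fcer1a, the beta chain Ms4a2 and the gamma chain Fcer1g, releases them. In mice, connective tissue mast cells are known for Cma1, Mcpt4, Cpa3 and Tpsb2, and mucosal mast cells for Mcpt1 and Mcpt2.

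The gene tables summed to 32103374 expected counts in replicate 1 and 38977618 in replicate 2, where an expected count is an estimated number of reads. Skeletal muscle markers were found as labelled, with 5 of 5 detected in both libraries and summed TPM (transcripts per fixed total, a level per transcript length) of 102463 in replicate 1 and 99226.6 in replicate 2. Detection required at least 5 expected counts and, in the same library, a TPM no lower than 1. The design has 1 group and implies no comparison between conditions, and no test is given, since an exact test with 2 libraries cannot pass a threshold of 0.05. Errors are SD over n = 2 libraries, and intervals and limits on counts cover counting error only, because the libraries carry no molecular identifiers.

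The connective tissue mast cell proteases Tpsb2, Cma1 and Cpa3 were abundant in both libraries, and Mcpt4 was detected at a lower level. None of the receptor markers Kit, Ms4a2 and Fcer1a was detected in both. Replicate 1 held 6 of the 9 genes, against 14.6% of all genes, and replicate 2 held 5 of the 9, against 16.0%. The 5 found in both libraries, against 4356 (10%) of all 43346 genes and 18.2% of the 21474 protein-coding genes, were the proteases Tpsb2, Cma1, Cpa3 and Mcpt4 and the histamine-forming enzyme gene Hdc. Ms4a2 was found in replicate 1 only, and Tpsab1, Kit and Fcer1a passed the detection threshold in neither. The genes were listed for their known expression in mast cells, so these shares describe the list and were not tested. In bulk RNA, more mast cells and more RNA per mast cell cannot be told apart.

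**Figure D1:**
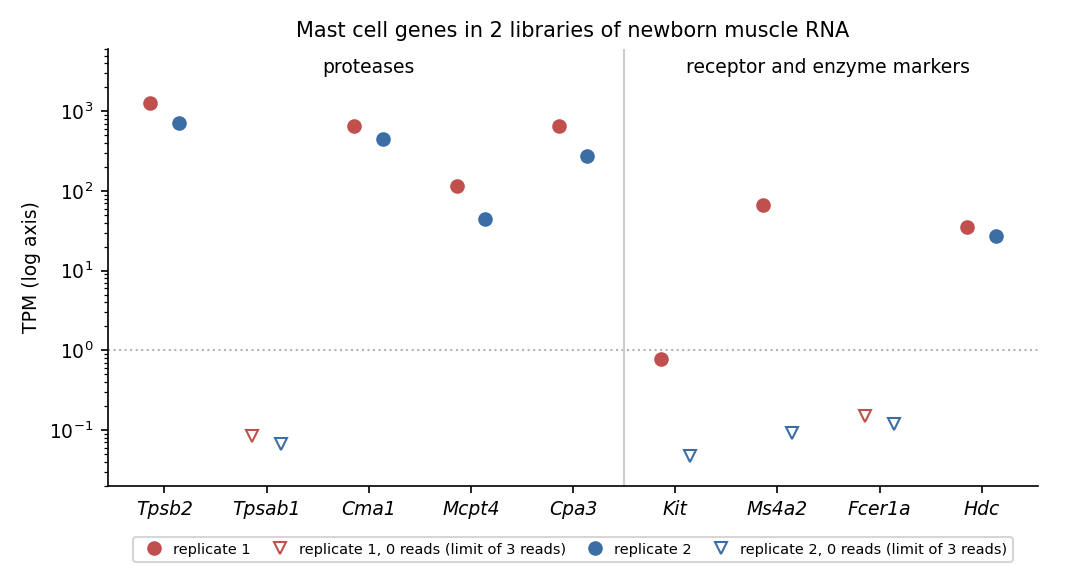
TPM (log axis) of the 9 mast cell genes in replicate 1 (red) and replicate 2 (blue). Filled points are libraries with reads, open triangles mark the TPM of 3 reads where a library had 0, and the dotted line is a TPM of 1. Tpsb2, Cma1, Cpa3, Mcpt4 and Hdc have points above that line in both libraries, Ms4a2 in replicate 1 only.

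Tpsb2, the tryptase also called mouse mast cell protease 6, was the most abundant of the 9 genes. It had 1255 TPM in replicate 1 (30060 reads) and 708 TPM in replicate 2 (21711 reads), with a mean of 981 ± 387 TPM (SD, n = 2). It ranked 84 by TPM among the 6350 detected genes of replicate 1 and 194 among the 6949 of replicate 2. Its neighbour Tpsab1, which encodes mouse mast cell protease 7, had 0 reads in both libraries. A count of 0 allows up to 3 reads, a level of 0.0852 TPM in replicate 1 and 0.0666 TPM in replicate 2, so Tpsb2 was at least 1.472e+04-fold higher than Tpsab1 in replicate 1 and at least 1.063e+04-fold higher in replicate 2. C57BL/6 mice are known to lack the Tpsab1 product, and whether that bears on these libraries was not tested.

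The tryptase genes are alike, so their sequences show whether reads could have been assigned to the wrong copy. Tpsb2 lies at chr17:25366305-25369098 on the plus strand and Tpsab1 at chr17:25343245-25345562 on the minus strand (GRCm38). Their coding sequences were identical at 626 of 827 aligned bases (75.7%), and the longest identical run was 39 bases. The read length implied by the deposited lengths is 100 bases, and 0 of the 982 stretches of 100 bases in the Tpsb2 transcript and 0 of the 1057 in the Tpsab1 transcript of 1156 bases occurred in a transcript of any other gene. The most alike stretches of 100 coding bases, both in exon 5, are printed 5′ to 3′ on the coding strand from the GENCODE M21 transcripts, at chr17:25367721-25367820 (plus strand) for Tpsb2 and chr17:25343445-25343544 (minus strand) for Tpsab1. Capitals mark the 7 bases at which they differ.
Tpsb2: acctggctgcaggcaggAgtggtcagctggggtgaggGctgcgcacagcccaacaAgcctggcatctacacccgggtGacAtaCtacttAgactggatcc
Tpsab1: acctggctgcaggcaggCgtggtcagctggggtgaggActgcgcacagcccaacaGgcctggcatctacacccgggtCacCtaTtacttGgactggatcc

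The chymase genes Cma1 and Mcpt4, which encode mouse mast cell proteases 5 and 4, were both detected in both libraries, Cma1 at the higher level. Cma1 had 656 TPM in replicate 1 (15600 reads) and 454 TPM in replicate 2 (13832 reads), with a mean of 555 ± 143 TPM (SD, n = 2). Mcpt4 had 117 TPM in replicate 1 (2542 reads) and 44.5 TPM in replicate 2 (1240 reads), with a mean of 80.7 ± 51.2 TPM (SD, n = 2). Cma1 was thus 5.61-fold higher than Mcpt4 in replicate 1 and 10.2-fold higher in replicate 2. On the log2(TPM + 1) scale the difference of Mcpt4 from Cma1 was −2.90 ± 0.60 (SD, n = 2), of the same sign in both libraries and more than 2 SD from 0. Mcpt4 took 15.1% of the summed chymase TPM in replicate 1 and 8.93% in replicate 2.

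Cma1 (chr14:55941451-55944675) and Mcpt4 (chr14:56059629-56062313, both on the minus strand, GRCm38) stand in a cluster of chymase, cathepsin G and granzyme genes. Of 19 annotated genes in this stretch of 320.8 kb, 15 are protein-coding, and 13 of those 15 had 0 reads in both libraries. The 13 genes with 0 reads include the mucosal chymase genes Mcpt1 and Mcpt2, the basophil protease gene Mcpt8, cathepsin G (Ctsg) and the granzyme gene Gzmb, whose protein is made by cytotoxic lymphocytes. Cma1 and Mcpt4 were therefore the 2 genes of the cluster that were detected in any library. The pseudogene Gm4819 had 2 reads in replicate 1 and 11.4 in replicate 2, below a TPM of 1 in both.

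**Figure D2:**
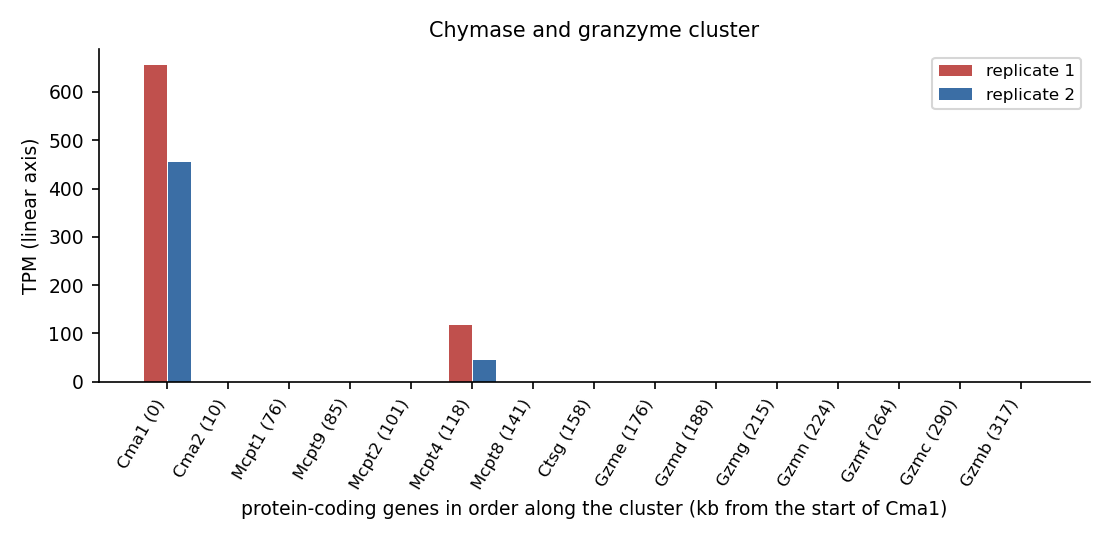
TPM (linear axis) of the 15 protein-coding genes of the chymase and granzyme cluster in order along the chromosome, with the distance from the start of Cma1 in kb beside each symbol. Bars are single libraries, replicate 1 in red left of replicate 2 in blue. Bars stand at Cma1 and Mcpt4, and the other 13 genes are at 0.

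Cma1 and Mcpt4 coding sequences were identical at 500 of 728 aligned bases (68.7%). None of the 975 stretches of 100 bases in Cma1 and 1 of the 1009 in Mcpt4 (0.0991%) occurred in another gene. That stretch occurs in Cma2, which had 0 reads in both libraries. The stretches were taken from GENCODE M21, where the Mcpt4 transcript has 1108 bases, against a deposited length of 990. Over the M21 sequences of all 25 deposited transcripts of the 9 genes, 2 held such a stretch. The other was the Ms4a2 transcript of 2391 bases, which shares 13 of its 2292 stretches (0.567%) with Ms4a4b. Their most alike coding stretches of 100 bases run over the junction of exons 4 and 5, between positions 55941705 and 55942132 of chromosome 14 for Cma1 and 56060008 and 56060502 for Mcpt4 (GRCm38, minus strand). They show the difference that reads had to carry to be assigned, and capitals mark the 15 differing bases in the GENCODE M21 transcripts.
Cma1: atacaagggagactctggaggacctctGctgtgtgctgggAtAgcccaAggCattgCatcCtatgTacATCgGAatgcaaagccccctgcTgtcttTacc
Mcpt4: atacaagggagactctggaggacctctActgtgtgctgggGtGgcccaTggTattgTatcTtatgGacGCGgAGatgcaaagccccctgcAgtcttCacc

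Cpa3 encodes carboxypeptidase A3, the exopeptidase stored with chymase in connective tissue mast cell granules, and lies at chr3:20215620-20242181 on the minus strand. It had 646 TPM in replicate 1 (21271 reads) and 272 TPM in replicate 2 (11489 reads), with a mean of 459 ± 264 TPM (SD, n = 2). Against Cma1 its log2(TPM + 1) difference was −0.02 in replicate 1 and −0.74 in replicate 2. The mean of −0.38 ± 0.50 lies within 2 SD of 0, so the order of Cpa3 and Cma1 was not resolved by these libraries.

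Ordered by mean TPM, the proteases ran Tpsb2, Cma1, Cpa3 and Mcpt4, with Tpsab1 at 0. Tpsb2 stood above Cma1 by 0.79 ± 0.21 and above Cpa3 by 1.17 ± 0.29 on the log2(TPM + 1) scale (SD, n = 2), both more than 2 SD from 0. Of the summed protease TPM, Tpsb2 made up 46.9% in replicate 1 and 47.9% in replicate 2, the chymases together 28.9% in replicate 1 and 33.7% in replicate 2, and Cpa3 24.2% in replicate 1 and 18.4% in replicate 2. All 9 genes summed to 2775 TPM in replicate 1 and 1506 TPM in replicate 2, which was 0.278% of all TPM in replicate 1 and 0.151% in replicate 2. Proteases took 96.3% of that sum in replicate 1 and 98.2% in replicate 2 (97.3 ± 1.33%, SD, n = 2).

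**Figure D3:**
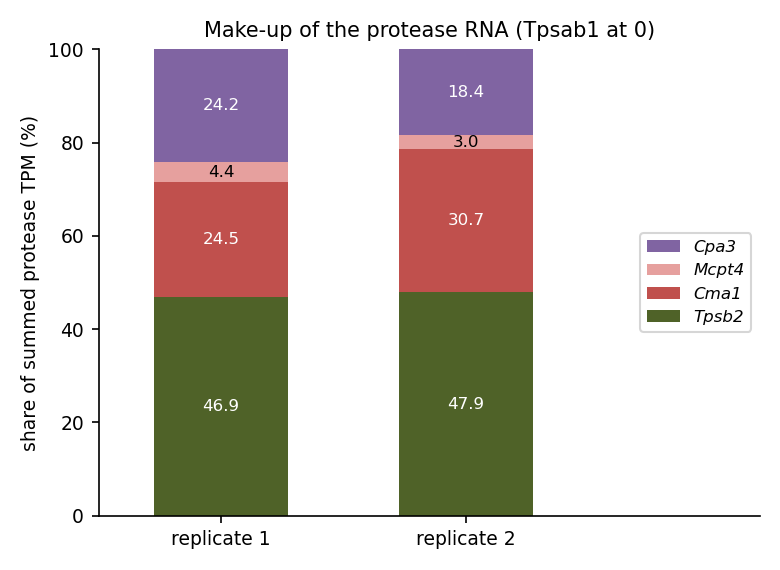
Share of the summed TPM of the 5 mast cell proteases (percent, linear axis from 0) taken by each gene in replicate 1 (left) and replicate 2 (right). Each stacked bar is a single library and Tpsab1 is at 0. Tpsb2 takes 46.9% in replicate 1 and 47.9% in replicate 2, and Mcpt4 takes the smallest share of the 4 genes with reads.

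Among the 4 markers, Hdc was detected in both libraries. Hdc (chr2:126593667-126619299, minus strand) encodes histidine decarboxylase, which makes histamine from histidine, and had 35.2 TPM in replicate 1 (1946 reads) and 27.2 TPM in replicate 2 (1654 reads). Its mean of 31.2 ± 5.64 TPM (SD, n = 2) had an SD of 18.0% of the mean, the smallest among the 5 genes found in both libraries. For Mcpt4, the largest, it was 63.4%. The place of Hdc as the smallest held for deposited TPM and not with scaling factors applied to counts, as given below. Hdc lay below Cma1 by a log2(TPM + 1) difference of −4.10 ± 0.12, more than 2 SD from 0. From Mcpt4, the next higher of the genes found in both libraries, it differed by −1.20 ± 0.72, within 2 SD of 0.

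Kit, the receptor tyrosine kinase for stem cell factor (chr5:75574916-75656722, plus strand), did not pass the detection threshold. It had 0.79 TPM in replicate 1, from 21 reads (95% Poisson interval 13.0 to 32.1), and 0 reads in replicate 2, which allow up to 0.0476 TPM. The call in replicate 1 depended on the estimate, since the deposited posterior mean there was 1.20 TPM, above the threshold, and a TPM minimum of 0.1 would also have passed it. Of the 21 reads, RSEM placed 13.1 on a retained-intron transcript of 842 bases and 7.9 on a coding transcript of 5214 bases. Kit is also made by melanocytes, of whose 5 markers 0 were detected, with a summed TPM of 0 in replicate 1 and 0.09 in replicate 2. Among protein-coding genes only 26.4% were detected in replicate 1 and 28.9% in replicate 2. The part of melanocytes in the Kit reads was not tested.

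The chains of the IgE receptor differed from each other. Fcer1a, the alpha chain that binds IgE (chr1:173221284-173227214, minus strand), had 0 reads in both libraries, which allow up to 0.151 TPM in replicate 1 and 0.118 TPM in replicate 2. Ms4a2, the signal-amplifying beta chain (chr19:11615523-11623719, minus strand), had 66.3 TPM in replicate 1, from 2385 reads (95% Poisson interval 2290 to 2483), and 0 reads in replicate 2. At the 3-read limit of replicate 2, 0.0929 TPM, the level in replicate 1 was at least 714-fold higher. Fcer1g, the gamma chain that macrophages and other leukocytes share, had 51.5 TPM in replicate 1 and 61.4 TPM in replicate 2. Macrophage markers were present beside it, with 4 of 8 detected in replicate 1 and 6 of 8 in replicate 2 and summed TPM of 633 in replicate 1 and 426 in replicate 2. The markers differed between the libraries in both directions. C1qb had 280 TPM in replicate 1 and 44.3 TPM in replicate 2, Lyz2 181 TPM in replicate 1 and 40.5 TPM in replicate 2, and C1qa 165 TPM in replicate 1 and 142 TPM in replicate 2. Mrc1 had 7.23 TPM in replicate 1 and 43.3 TPM in replicate 2, C1qc 0 reads in replicate 1 and 88.2 TPM in replicate 2, and Cd68 0 reads in replicate 1 and 67.0 TPM in replicate 2. Adgre1 was at 0 in both and Csf1r under a TPM of 1. Their part in the Fcer1g level was not tested.

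The markers were set beside all genes of like level. Of 2361 genes within 2-fold of the Ms4a2 level in replicate 1, 72.2% were detected in replicate 2 (95% Wilson interval 70.4 to 74.0%), and 21.3% had 0 reads there. At the Hdc level the share found in the other library was 64.8% of 2493 genes starting from replicate 1 and 55.3% of 2791 starting from replicate 2. At the Mcpt4 level it was 84.3% of 1504 genes starting from replicate 1 and 61.6% of 2717 starting from replicate 2. The 3 most abundant proteases stood where nearly all genes were found again, from 96.0% of 652 genes at the Cpa3 level of replicate 2 to 100% of 163 genes at the Tpsb2 level of replicate 1. Genes share a library in these counts and are no replicates of it.

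Transcript tables gave 25 transcripts of the 9 genes, 12 with reads in replicate 1 and 8 in replicate 2. Cma1, Mcpt4 and Tpsb2 have 1 transcript each, and all Cpa3 reads were placed on its coding transcript of 1449 bases. Hdc was mostly the coding transcript of 2392 bases, at 98.6% of Hdc TPM in replicate 1 and 82.7% in replicate 2. A short noncoding Hdc transcript of 354 bases made up 1.41% (3.09 reads) in replicate 1 and 15.7% (34.1 reads) in replicate 2, a share that rests on few reads. Ms4a2 in replicate 1 was split over coding transcripts of 2391 bases, with 1942 reads and 52.3% of its TPM, and 647 bases, with 403 reads and 45.5%, while that of 1211 bases had 39.9 reads and 2.22%.

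Between libraries, all 5 genes found in both stood higher in replicate 1. The log2 ratio of TPM in replicate 1 over replicate 2 was 1.39 for Mcpt4, 1.25 for Cpa3, 0.83 for Tpsb2, 0.53 for Cma1 and 0.37 for Hdc. Their median was 0.83, beside 0.05 for the 4872 genes with at least 10 reads in both libraries, whose SD was 2.26. Mcpt4 and Cpa3 passed 2-fold (2 of 5), a difference that 25.6% of those genes showed toward replicate 1 and 24.9% toward replicate 2. These shares cover genes of all levels and were not taken at the levels of Mcpt4 and Cpa3. All 5 genes also stood higher in replicate 1 with TPM without spike-ins, edgeR (TMM) or DESeq2 scaling factors, and centring on the median gene. Hdc stood at 0.60 with edgeR (TMM) and 0.58 with DESeq2 factors, above Cma1 at 0.53 and 0.52. These factors scale counts without regard to length, and Cma1 then had the lowest ratio. Of the settings tried, spike-in scaling, chosen after the data were seen, changed the direction. Spike-in RNAs, added by the submitters, made up 9.44% of the TPM of replicate 1 and 4.54% of that of replicate 2, and ratios scaled to the median of 25 spike-ins moved the median of all genes by −0.98, which put it at −0.93. Then 2 of 5 stood higher in replicate 1, Mcpt4 at 0.41 and Cpa3 at 0.26, against −0.16 for Tpsb2, −0.45 for Cma1 and −0.61 for Hdc. The spread of single spike-ins (SD 1.00 on the log2 scale) was larger than any of the rescaled differences. The error of their median, which set the scaling, was not estimated.

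**Figure D4:**
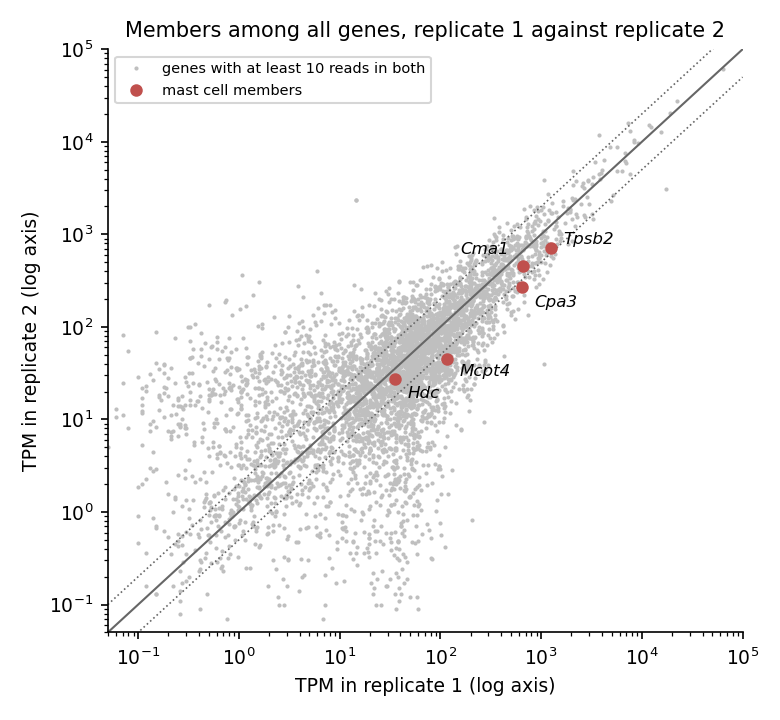
TPM in replicate 1 (horizontal, log axis) against replicate 2 (vertical, log axis) for the 4872 genes with at least 10 reads in both libraries (grey) and the 5 mast cell genes among them (red, named). The solid line marks equal TPM and the dotted lines 2-fold differences. The 5 genes lie below the line of equal TPM, and Mcpt4 and Cpa3 lie beyond the lower dotted line.

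The counts from lists below stand beside 26.4% of protein-coding genes detected in replicate 1, 28.9% in replicate 2 and 18.2% in both. They describe the lists and were not tested. Of 9 other mast cell protease genes, 1 was detected, Prss34 (mouse mast cell protease 11, made by mast cells and basophils), with 109 TPM in replicate 1 (2962 reads) and 0 reads in replicate 2. Tpsg1, the gamma tryptase gene next to Tpsb2, had 0 reads in replicate 1 and 6.89 in replicate 2, a TPM of 0.33. Of 4 basophil markers, 2 were detected in replicate 1 and 0 in replicate 2. These were Prss34 and Cd200r3, an activating receptor that mast cells also carry, with 40.6 TPM in replicate 1 and 0 reads in replicate 2. The basophil list summed to 149 TPM in replicate 1 and 0 TPM in replicate 2, and its members Mcpt8 and Il4 had 0 reads in both. Ms4a2, which basophils also make, was found in the same library, and the part of basophils in its level was not tested.

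Replicate 1 held 3 and replicate 2 held 2 of 10 granule and mediator genes, and Ctsc was common to both. The shares of all protein-coding genes detected were 26.4% in replicate 1 and 28.9% in replicate 2. Ctsc encodes the cathepsin that activates granule serine proteases and had 46.8 TPM in replicate 1 and 50.6 TPM in replicate 2. Srgn, the serglycin core protein that holds proteases in the granule, had 107 TPM in replicate 1 (2189 reads) and 0 reads in replicate 2. Alox5ap, the 5-lipoxygenase activating protein, had 55.6 TPM in replicate 1 and 0.04 TPM, or 1 read, in replicate 2. The leukotriene C4 synthase gene Ltc4s ran the other way, with 0 reads in replicate 1 and 31.6 TPM in replicate 2.

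Replicate 1 held 3 and replicate 2 held 1 of 10 receptor and signalling genes, with Fcer1g in both. The adaptor gene Lat2 had 46.0 TPM in replicate 1 and 0 reads in replicate 2, and Il1rl1, the receptor of the cytokine IL-33, 1.24 TPM in replicate 1 and 0.03 TPM in replicate 2. Mrgprb2, the receptor of connective tissue mast cells for basic secretagogues, and the kinases Lyn, Syk and Btk had 0 reads in both libraries. Of 6 transcription factors, 0 were detected in both, beside 18.2% of protein-coding genes. Mitf, which acts downstream of Kit, had 2.23 TPM in replicate 1 and 0 reads in replicate 2. The deposited posterior means of Mitf were 22.4 TPM in replicate 1 and 15.8 TPM in replicate 2, so its level depended on the estimate. Gata2 had 0 reads in replicate 1 and 19.4 TPM in replicate 2, and Stat5a 0 reads in replicate 1 and 16.1 TPM in replicate 2. Of 4 Kit ligand and other histamine genes, 2 were detected, both in replicate 2, where 28.9% of protein-coding genes were detected. Kitl, the Kit ligand, which fibroblasts and other stromal cells make, had 0 reads in replicate 1 and 28.6 TPM in replicate 2, and the histamine-degrading enzyme gene Hnmt 0 reads in replicate 1 and 1.68 TPM in replicate 2. Genes of like level were found in the other library at shares of 83.0% for the Prss34 level, 82.4% for Srgn, 52.9% for Gata2 and 56.0% for Kitl. The share of those with 0 reads there was 12.9% for Prss34, 13.4% for Srgn, 33.7% for Gata2 and 31.5% for Kitl. Neutrophil and lymphocyte markers gave 0 of 6 and 0 of 5 detected, at a depth where most protein-coding genes were missed in each library.

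**Figure D5:**
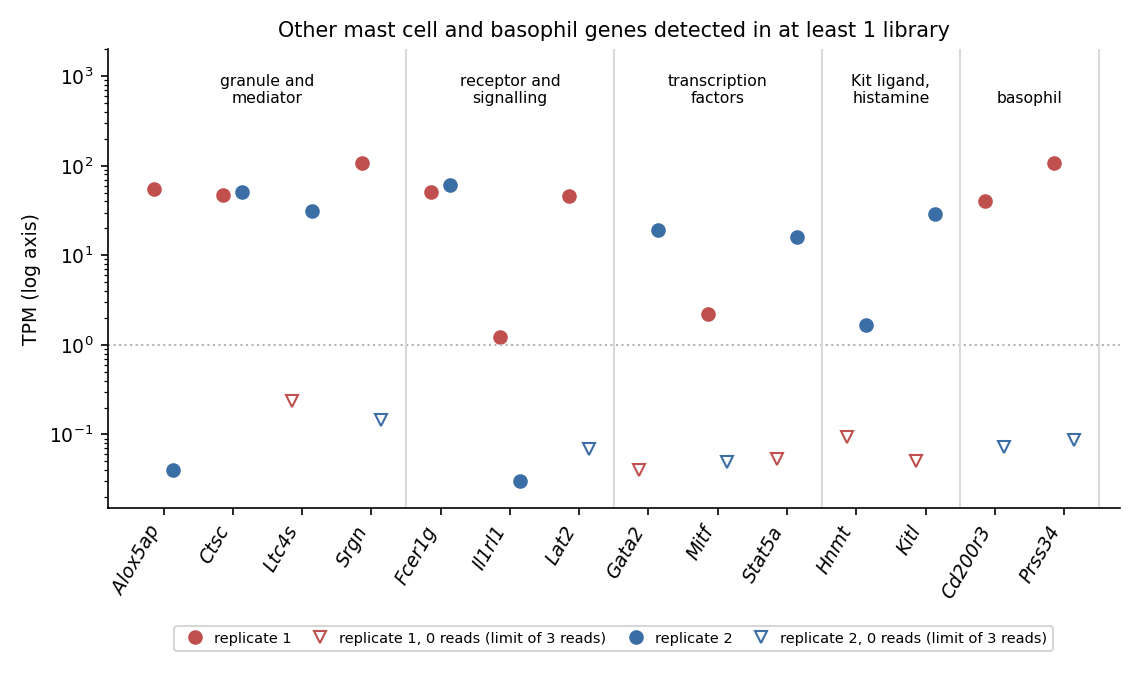
TPM (log axis) of the other mast cell and basophil genes detected in at least 1 library, grouped by list, in replicate 1 (red) and replicate 2 (blue). Filled points are libraries with reads, open triangles mark the TPM of 3 reads where a library had 0, and the dotted line is a TPM of 1. Ctsc and Fcer1g have points above that line in both libraries, and the other genes in a single one.

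Promoters are shown because Mcpt4 was read in both libraries while its cluster neighbour Mcpt1 had 0 reads in both. Sequences are the 250 bases before the RefSeq transcription start (GRCm38.p6), 5′ to 3′ on the gene's strand, at chr14:56062311-56062560 (minus strand) for Mcpt4, chr14:56017714-56017963 (plus) for Mcpt1, chr3:20242182-20242431 (minus) for Cpa3 and chr19:11623720-11623969 (minus) for Ms4a2. Capitals mark the letters AGATAA or TGATAA on either strand. These are forms of the motif bound by GATA factors such as the product of Gata2. Forms ending in G, AGATAG and TGATAG, were not searched and are not marked.
Mcpt4: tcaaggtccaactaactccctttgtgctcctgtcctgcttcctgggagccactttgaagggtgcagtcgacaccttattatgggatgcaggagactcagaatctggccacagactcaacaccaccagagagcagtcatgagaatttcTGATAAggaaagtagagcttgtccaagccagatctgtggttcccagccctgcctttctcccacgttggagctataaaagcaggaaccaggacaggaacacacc
Mcpt1: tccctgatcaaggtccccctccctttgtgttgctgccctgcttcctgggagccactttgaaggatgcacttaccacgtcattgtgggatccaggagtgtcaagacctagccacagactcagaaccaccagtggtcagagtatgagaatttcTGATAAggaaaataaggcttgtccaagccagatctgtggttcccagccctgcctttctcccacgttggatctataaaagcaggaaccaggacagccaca
Cpa3: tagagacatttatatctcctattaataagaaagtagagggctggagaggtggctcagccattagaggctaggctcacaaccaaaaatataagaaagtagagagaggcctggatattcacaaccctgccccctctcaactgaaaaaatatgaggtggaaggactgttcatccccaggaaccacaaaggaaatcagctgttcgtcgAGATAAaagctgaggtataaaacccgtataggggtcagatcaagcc
Ms4a2: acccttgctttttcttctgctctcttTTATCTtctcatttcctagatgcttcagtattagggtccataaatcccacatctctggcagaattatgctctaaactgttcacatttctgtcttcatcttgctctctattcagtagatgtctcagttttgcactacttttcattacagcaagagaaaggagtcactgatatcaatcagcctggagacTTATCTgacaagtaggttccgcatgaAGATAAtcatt

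Mcpt4 and Mcpt1 were identical at 209 of 242 aligned promoter bases (86.4%), and each held 1 match, 103 bases before the start in Mcpt4 and 99 in Mcpt1. The promoter table held 7 of the 9 genes, without Tpsb2 and Tpsab1. The motif was present in 4 of those 7, Mcpt4, Cpa3 (46 bases before the start), Ms4a2 (3 matches) and Fcer1a, beside 16.6% of the 32851 promoters in the table. Of these 4, Mcpt4 and Cpa3 were detected in both libraries, Ms4a2 in replicate 1 and Fcer1a in neither, and Cma1 and Hdc were detected without a match. A match describes letters in this window and no binding was measured.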

How the data were processed

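Total RNA of 2 libraries of newborn muscle was measured. Per the file headers, the authors deposited RSEM tables of genes and transcripts with posterior means. Expected counts, deposited by the authors without normalization, are estimated reads per gene. The deposited TPM values are scaled by the authors to a fixed sum over all rows, spike-ins included, and FPKM values deposited beside them served as an alternative. Transcript shares are the deposited percent values of each gene's TPM, and the credibility bounds of TPM in the authors' tables were copied but not used. The read assignment used mm10 and GENCODE M4, per the deposited file descriptions. Which aligner was run and whether strand was used is not given in the sources used here, so antisense reads cannot be told apart. Amplified reads are not separate molecules.

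From these values, 43346 genes were kept, leaving out 96 spike-ins, phiX and 26248 short numbered rows (0 reads in replicate 1 and 182 in replicate 2). GENCODE M21 on GRCm38, the assembly called mm10, gave symbols to 42462 genes by identifier. Ratios between genes used log2(TPM + 1), ratios between libraries used TPM, and a mean beyond 2 SD was described as such. Limits take 3 reads for a count of 0, per library. Intervals are exact Poisson or Wilson at 95%. Counts were rounded where they were drawn down or scaled. R 4.3.3, edgeR 4.0.16 and DESeq2 1.42.0 gave scaling factors only. Other steps used Python 3.11.15, numpy 2.4.6, pandas 2.3.3, scipy 1.17.1, Biopython 1.88 and matplotlib 3.10.9. All 9 genes were named, and from each list of mast cell genes those detected in both libraries and up to the 4 highest of those detected in 1. Macrophage and basophil markers, and a few genes at 0 or near 0 reads, are named beside the results they touch. The genes and lists were chosen with earlier results of these data known, and spike-in scaling and centring on the median gene were added after the data were seen. 1 list of related genes is not reported here.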

Additional observations from a re-analysis of the deposited data

How the results depend on the processing

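No paired analysis was possible because the study has 1 group. The count of 5 genes detected in both libraries held under 4 other thresholds, posterior means and replicate 2 drawn down to the summed expected counts of replicate 1, spike-ins included. Expected counts, which ignore length, gave a protease share of 95.4%, a log2 difference of Cpa3 from Cma1 of 0.090 (reversed) and of Tpsab1 from Tpsb2 of −14.64. The tryptase difference was −13.20 with a pseudocount of 0.1 and −6.57 with 10, since it sets a gene at 0 reads against the pseudocount. Genes past 2-fold numbered 601 toward replicate 1 and 2352 toward replicate 2 with spike-in scaling, chosen after the data were seen, and 3362 and 3822 of 9636 where reads in 1 library were enough. Mean Hdc was 24.3 in FPKM. Leaving out either library leaves the value of the other, which gave 96.3 to 98.2% for the protease share, 1506 to 2775 for summed TPM, −3.32 to −2.48 for Mcpt4 against Cma1, −0.74 to −0.02 for Cpa3 against Cma1 and −10.29 to −9.47 for Tpsab1 against Tpsb2. With 13 pg of input, 0 reads set a limit for the library and not for the tissue.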
